A study of Mus musculus with 18 samples.

Results

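The 47 genes described here are mouse zinc finger genes with symbols between Zfp900 and Zfp999, out of 22180 genes measured on Affymetrix Mouse Gene 2.0 ST arrays. A gene was a member when at least 1 transcript cluster of the array was annotated to it alone, and the cluster with the highest mean over 18 arrays was used for the 4 members with several (Zfp937, Zfp939, Zfp943 and Zfp979). Clusters naming several genes were left out (21 of these name a symbol of this range), and 15 genes of the range in the RefSeq table have no cluster of their own. The family was chosen by its difference between high and low ovulation in hypothalamus on these arrays, so that difference is given as a description, with no test.

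RNA was taken from hypothalamus, pituitary and ovary of female BABL/c mice (strain as labelled), assigned to groups at 6 weeks and superovulated at 9 weeks of age. Stressed mice had been driven over 1000 km, at about 50 km/h, and control mice stayed in the laboratory; 10 littermate pairs were divided between these groups. In each tissue and treatment, the array called high held the mouse that ovulated the most oocytes, the one called low held the mouse that ovulated the fewest, and the pool combined the other 8 mice. Each tissue thus had 6 arrays, 3 stressed and 3 control, and the 3 tissues of a treatment and class came from the same mouse or pool. A class is a single mouse per treatment or 1 pool, so the spread includes differences between individual mice, and precision is limited by how few arrays there are. All levels are log2 signals as deposited, between 0.40 and 13.66 over the table, and all differences are on the log2 scale.

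Most numbered Zfp genes encode proteins with arrays of C2H2 zinc fingers, each finger reading a few bases of DNA. Many of the recently duplicated mouse genes also carry a KRAB domain, which recruits TRIM28 (KAP1) and through it the histone methyltransferase SETDB1 and heterochromatin protein 1. This machinery is best known for silencing endogenous retroviruses and other transposable elements. The genes lie in clusters formed by local duplication, and ZFP932 has been described as a repressor of endogenous retroviruses in mouse embryonic stem cells. The array's probes cannot always separate close paralogues, so the value of a single member is uncertain where near-identical copies exist.

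The members lie on 12 chromosomes: 13 on chromosome 17, 8 each on chromosomes 4 and 7, 5 on chromosome 8, 4 on chromosome 2, 2 each on chromosomes 5 and 13, and 1 each on chromosomes 6, 9, 10, 14 and 19. All 47 matched a protein-coding gene of the RefSeq table (assembly GRCm38.p6). The assembly of the array annotation is not given in the sources used here, so gene coordinates are not printed, and coordinates below belong to the RefSeq promoter windows.

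Promoter sequence is shown because many members, on different chromosomes, share a short stretch just before their start. RefSeq windows of 300 bases (250 before and 50 after the start, GRCm38.p6) were found for 43 of the 47 members, 51 windows in all. The letters CCAAT (either strand, so also ATTGG; the element known as the CCAAT box) occurred in 39 of the 51 windows (76.5%), against 43.9% of 319 windows of other numbered Zfp genes and 37.4% of 32851 windows of all genes. Between 120 and 40 bases before the start, 33 member windows (64.7%) held it, against 25.7% of windows of other numbered Zfp genes and 17% of all windows. The longer word CCAATCAG, picked after the windows were read, was present on either strand in 19 member windows (37.3%) of 14 genes on 7 chromosomes. It was in 11.3% of windows of other numbered Zfp genes and 4.1% of all windows. The letters TATAAA (either strand) were in 0 of 51 member windows, 8.15% of windows of other numbered Zfp genes and 13.6% of all windows. GGGCGG (either strand, where it can overlap ATTGG) was in 39.2%, 45.1% and 35.7% of these windows, in the order members, other numbered Zfp genes and all. CCGGAAG (either strand) was in 23.5%, 21.6% and 8.86%, so the members were close to other numbered Zfp genes in it. Members of a cluster share sequence by descent, so these windows are not independent, and a match describes letters and not a bound site.

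The stretch around the CCAAT nearest to the start is given 5′ to 3′ on the gene's strand for 6 members, with CCAAT in capitals. The examples are the members with the lowest hypothalamic differences that have such a stretch (Zfp971, Zfp937 and Zfp935), one with a positive difference (Zfp959), and Zfp938 and Zfp932 from other chromosomes. They lie at chr2:178023194-178023223 (plus strand), chr2:150218028-150218057 (plus), chr13:62466870-62466899 (minus), chr17:55892000-55892029 (plus), chr10:82241328-82241357 (minus) and chr5:109996443-109996472 (plus), in this order.
Zfp971: aagactcaatagCCAATcagaacctccaca
Zfp937: aagactcactagCCAATcagcacatatacg
Zfp935: aagtctcactagCCAATcagggcctccgga
Zfp959: atgcctcactagCCAATcacggcctccaga
Zfp938: aagcctcactagCCAATcagggactccaga
Zfp932: aagacttactggCCAATcagagcctctacg

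Of the 30 bases of Zfp971, 24 were identical in Zfp937, Zfp935, Zfp938 and Zfp932 and 23 in Zfp959. In all, 11 other members on 8 chromosomes (counting that of Zfp971) had at least 22 identical bases. These 12 members had a median high minus low difference of -0.51 in hypothalamus, with a range of -2.08 to 0.26, so the stretch was present in the member with the lowest difference and in Zfp959 and Zfp972, 2 of the 6 members with a positive difference. Of the 8 members on chromosome 4, 6 share another stretch, in which the letters run the other way as ATTGG and continue into GGGCGG. It is given for Zfp980 (chr4:145670612-145670641, plus strand), Zfp979 (chr4:147642564-147642593, minus), Zfp985 (chr4:147553197-147553226, plus) and, for comparison, Zfp947 on another chromosome (chr17:22166009-22166038, minus), with ATTGG in capitals.
Zfp980: aagctggtgagtATTGGgcgggtccagaag
Zfp979: aagctggtgagtATTGGgcgggtccagtag
Zfp985: aagctgctgagtATTGGgcgggtccagaag
Zfp947: taaccacggtttATTGGgcgggtctaggag

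Zfp979 and Zfp985 had 29 of 30 bases in common with Zfp980, and Zfp947 had 20. All 5 other members with at least 27 bases in common with Zfp980 were on chromosome 4. These 6 members had a median hypothalamic difference of -0.51, with a range of -1.19 to -0.09, close to that of the first set. The 32 members with CCAAT in any window had a median hypothalamic difference of -0.50 and the 11 without it a median of -0.73. These come from the values that chose the family, so nothing is read from them, and a part of the letters in the difference was not tested. The whole window of Zfp971, the member with the lowest difference, is chr2:178023034-178023333 (plus strand), with CCAAT and ATTGG in capitals.
Zfp971: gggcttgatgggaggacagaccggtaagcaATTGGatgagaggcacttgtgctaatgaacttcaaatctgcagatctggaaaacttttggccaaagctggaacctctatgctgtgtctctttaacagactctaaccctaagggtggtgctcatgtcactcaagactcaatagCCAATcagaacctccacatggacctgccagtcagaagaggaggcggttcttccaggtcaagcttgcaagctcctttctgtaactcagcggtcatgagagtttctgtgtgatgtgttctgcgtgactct

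The members were weakly to moderately expressed. Their median level over 18 arrays was 5.22, against 6.00 for 289 other numbered Zfp genes and 5.70 for all genes, and 34 of 47 lay below the median gene. The highest mean levels were those of Zfp945 (7.27), Zfp948 (7.09) and Zfp963 (6.85). The lowest were those of Zfp985 (1.91), Zfp980 (2.28) and Zfp951 (2.54), which differed little between tissues. These are signals per cluster, not corrected for probe number or length, so the order of genes is that of the array and not of transcript number.

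Pituitary gave the highest signal for many members and ovary the lowest (the plot of levels by tissue). Between ovary and pituitary, 20 of 47 members (42.6%) were lower in ovary and 0 higher at an adjusted p below 0.05 (limma over all 18 arrays, with the mouse or pool as a block), where 19.2% of all genes were lower and 21.8% higher. Between hypothalamus and pituitary, 10 members (21.3%) were lower in hypothalamus and 2 (4.26%) higher, against 19.9% and 19.6% of all genes. Between hypothalamus and ovary, 9 members (19.1%) were higher in hypothalamus and 2 (4.26%) lower, against 21.5% and 25.7% of all genes. The median member difference was -0.42 for ovary minus pituitary, -0.34 for hypothalamus minus pituitary and 0.22 for hypothalamus minus ovary, while the medians of all genes were -0.01, -0.04 and -0.03. In whole tissue, fewer cells that express a gene and less RNA per cell cannot be told apart.

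**Figure D1:**
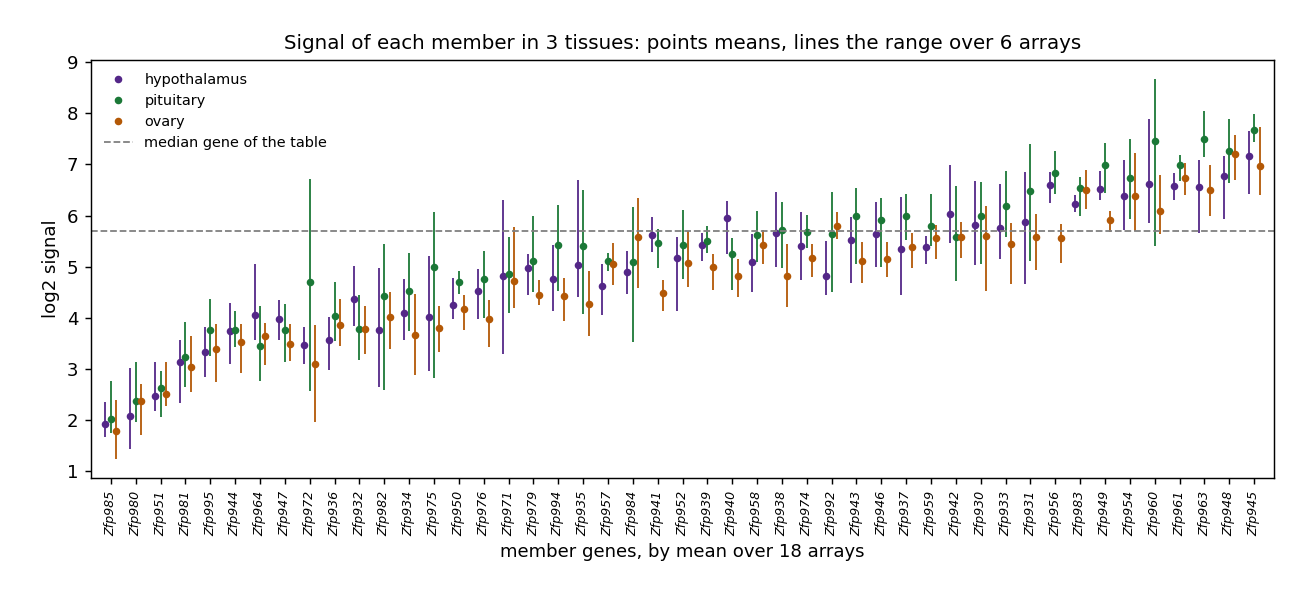
Log2 signal (y axis) of each of the 47 members (x axis, ordered by mean over 18 arrays) in hypothalamus, pituitary and ovary; points are means, lines run over the lowest and highest of 6 arrays, and the dashed line is the median gene (5.70). Most members lie below the dashed line, and pituitary lies above ovary for 42 of the 47.

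Zfp963 was the only member whose lowest array in a tissue lay above every array of the other tissues. In pituitary the stressed mice had 7.17 (high), 7.14 (low) and 7.35 (pool), against 7.77, 8.05 and 7.50 in the same classes of control mice. Its highest array outside pituitary was the stressed hypothalamus pool, at 7.09, so the gap was 0.05. It was lower by 0.94 in hypothalamus (-0.94 ± 0.22, SE; limma adjusted p = 0.0015) and by 0.99 in ovary (-0.99 ± 0.22; adjusted p = 0.00089) than in pituitary.

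Zfp940 ran the other way. It averaged 5.95 in hypothalamus, 5.24 in pituitary and 4.83 in ovary, with hypothalamus higher by 0.70 ± 0.17 over pituitary (limma adjusted p = 0.0027) and by 1.12 ± 0.17 over ovary (adjusted p = 1.79e-05). Zfp992 was lower in hypothalamus than in both other tissues, by -0.82 ± 0.18 against pituitary (limma adjusted p = 0.0011) and by -0.98 ± 0.18 against ovary (adjusted p = 0.00014). Zfp957 was also lower in hypothalamus than in both, by -0.50 and -0.44. These 3 members were picked after their values were seen, as those called between hypothalamus and both other tissues in 1 direction.

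In hypothalamus, 41 of 47 members were lower in the high than in the low ovulation mice. The median difference was -0.65, with quartiles of -0.95 and -0.33 and a range of -2.08 to 0.29, while the median of all genes was 0.03 and that of other numbered Zfp genes -0.16. In 31 members (66%) both high mice lay below both low mice, against 24% of all genes, and in 1 member (2.13%) both lay above, against 25.6%. The difference was -1 or lower in 10 members (21.3%) and in 1.01% of all genes. Since the family was chosen on this contrast, nothing is read from these shares.

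Zfp971 had the lowest difference. The high mice had 3.29 (stressed) and 4.70 (control), against 6.30 and 5.84 in the stressed and control low mice, and the pools had 4.54 and 4.27. The high and low mice did not overlap, and the mean difference was -2.08. The stressed high and the stressed low mouse were the extremes of the 6 arrays.

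Zfp937 and Zfp960 followed. Zfp937 had 4.57 and 4.45 in the stressed and control high mice, against 6.37 and 6.03 in the stressed and control low mice, a mean difference of -1.69 that was alike in both treatments (-1.80 and -1.58). Zfp960 had 5.96 and 6.25 in the stressed and control high mice, against 7.88 and 7.50 in the stressed and control low mice, a difference of -1.58. Its pools, at 6.21 and 5.86, were as low as the high mice.

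Zfp942, Zfp935 and Zfp982 completed the 6 lowest. Zfp942 had 5.53 and 5.66 in the stressed and control high mice, against 6.99 and 6.86 in the low mice, a difference of -1.33. Zfp935 had 4.42 and 4.78 in the stressed and control high mice, against 6.69 and 5.16 in the low mice, also a difference of -1.33. In Zfp935 most of the mean came from the stressed pair (-2.27) and little from the control pair (-0.38). Zfp982 had 3.21 and 3.98 in the stressed and control high mice, against 4.97 and 4.61 in the low mice, a difference of -1.19.

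The 6 members without a negative difference moved little. Zfp957 had 4.81 and 4.64 in the stressed and control high mice, against 4.06 and 4.81 in the low mice, so the pairs ran in opposite directions around a mean of 0.29. Zfp956 had 6.68 and 6.63 in the stressed and control high mice, against 6.25 and 6.52 in the low mice, a mean of 0.27, and it was the member in which both high mice lay above both low mice. Zfp959 (0.26), Zfp995 (0.25), Zfp939 (0.06) and Zfp972 (0.02) had high and low mice that overlapped.

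The size of the hypothalamic difference rested more on the stressed than on the control pair. Among stressed mice 44 of 47 members were lower in the high mouse, with a median of -0.96, and among control mice 34 were lower, with a median of -0.32. Both pairs were lower in 33 members (70.2%), against 29.5% of all genes and 47.4% of other numbered Zfp genes. Without the stressed high mouse the median was -0.32, and without the stressed low mouse it was -0.40; without the control high or low mouse it was -0.84 and -0.81. The 16 members at or above the median level of hypothalamus had a median of -0.81 and the 31 below it one of -0.51. Both come from the values that chose the family, so nothing is read from them.

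**Figure D2:**
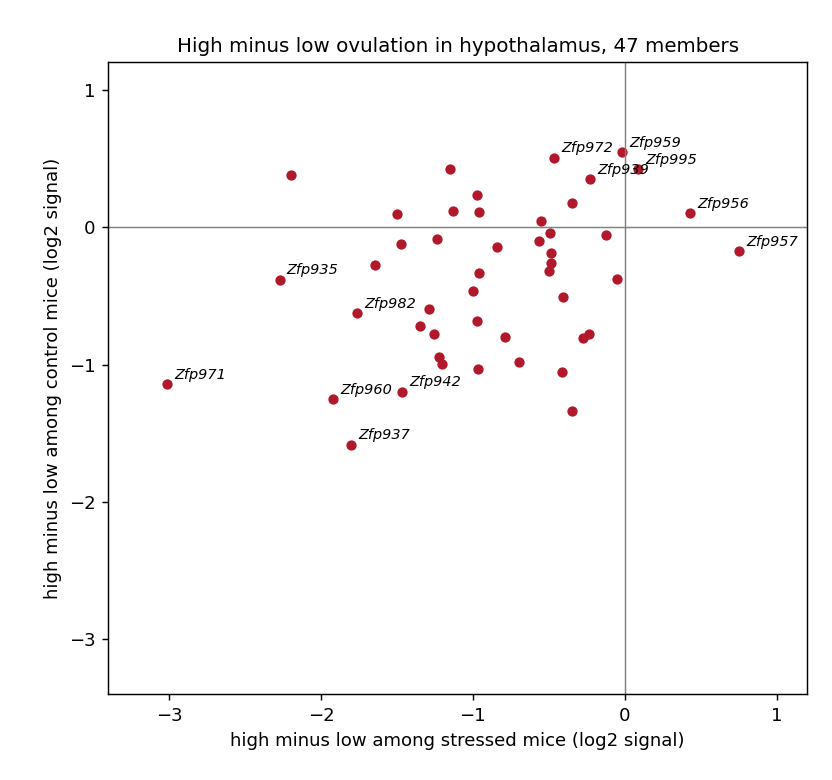
High minus low ovulation in hypothalamus among stressed mice (x axis, log2 signal) against the same among control mice (y axis, log2 signal); each point is 1 of the 47 members, and the 6 lowest and 6 highest are named. Most points lie left of and below 0, with 33 members lower in both pairs, and the stressed pair has the wider range (-3.01 to 0.75 against -1.58 to 0.54).

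The difference was spread over the chromosomes. All 8 members on chromosome 4 and all 5 on chromosome 8 were lower in the high mice, with medians of -0.59 and -0.70. On chromosome 17, 11 of 13 were lower (median -0.73), and on chromosome 7, 7 of 8 (median -0.39). On chromosome 2, Zfp971, Zfp937 and Zfp931 were lower while Zfp972 was at 0.02.

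In pituitary and ovary of the same mice the medians lay near or above 0. In pituitary, 23 members were lower and 24 higher in the high than in the low mice, with a median of 0.03. High and low mice did not overlap in 6 members that were lower (12.8%, against 18.4% of all genes) and 11 that were higher (23.4%, against 14.4%). In ovary, 17 were lower and 30 higher, with a median of 0.16, and groups did not overlap in 8 lower members (17%, against 19.5%) and 16 higher ones (34%, against 16.3%). No member passed an adjusted p of 0.05 in either tissue (limma, 6 arrays each; 0% of all genes did), and the lowest adjusted p of a member was 0.90 in pituitary and 0.41 in ovary. The pituitary median was -0.11 without the control low mouse and 0.18 without the stressed low mouse, and the ovary median was 0.33 without the stressed high mouse. Unadjusted p lay below 0.05 in 4 members and 1160 genes in pituitary, and in 16 members and 2382 genes in ovary. Whether the high minus low difference differs between tissues was not tested, because the hypothalamic values chose the family.

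The members with the lowest hypothalamic differences had other values elsewhere. Zfp971 had -0.21 in pituitary and 0.80 in ovary, Zfp937 had 0.43 and -0.01, and Zfp960 had 0.34 and 0.60. Zfp942 (-0.57 and -0.35) and Zfp935 (-0.60 and -0.00) were below or near 0 in both, and Zfp982 had 0.14 and 0.10. Of the members without a negative hypothalamic value, Zfp957 had 0.10 in pituitary and 0.42 in ovary, Zfp956 had -0.51 and 0.04, and Zfp959 had -0.07 and -0.38. Zfp995 had 0.56 and -0.39, Zfp939 had 0.13 and 0.06, and Zfp972 had 0.42 and 0.74. In pituitary, the non-overlapping members with the smallest unadjusted p were Zfp980 (-0.70), Zfp940 (-0.58) and Zfp956 (-0.51) on the low side and Zfp952 (0.77), Zfp944 (0.64) and Zfp934 (0.51) on the high side, where Zfp964 (0.73) and Zfp932 (0.63) also did not overlap.

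In ovary, Zfp981 and Zfp931 had the smallest unadjusted p among members higher in the high mice. Zfp981 had 3.65 and 3.39 in the stressed and control high mice, against 2.93 and 2.54 in the low mice, a difference of 0.78 (95% confidence interval 0.41 to 1.16; limma adjusted p = 0.41). Zfp931 had 6.04 and 5.80 in the stressed and control high mice, against 4.95 and 5.33 in the low mice, a difference of 0.78 (0.31 to 1.25; limma adjusted p = 0.41). Zfp983 (0.61) came next by p, and the members with lower values were Zfp994 (-0.65), Zfp936 (-0.53) and Zfp959 (-0.38), none of which passed. These names follow the smallest unadjusted p among members whose high and low mice did not overlap, and other members had larger values, such as Zfp971 (0.80) and Zfp930 (0.78) on the high side and Zfp976 (-0.44) below Zfp959.

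**Figure D3:**
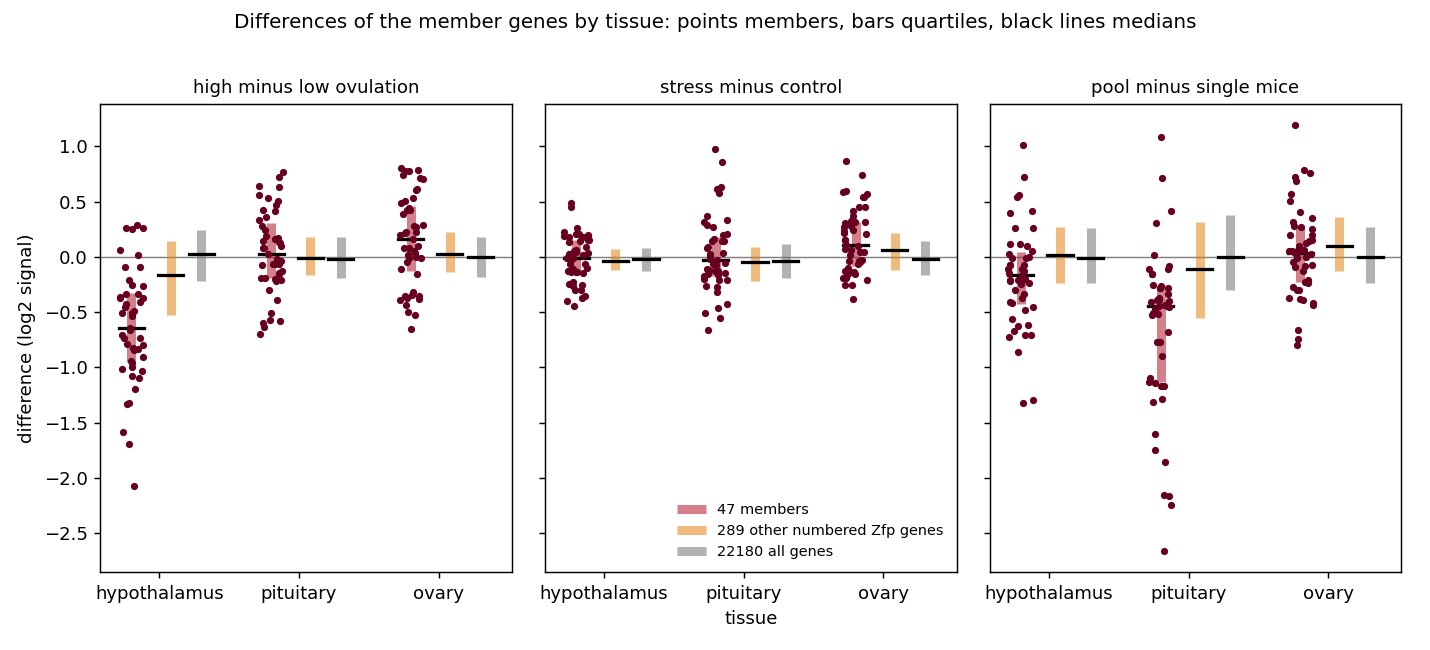
Differences (y axis, log2 signal) by tissue (x axis) for high minus low ovulation, stress minus control, and pool minus single mice; points are the 47 members, bars run over the quartiles of the members, of 289 other numbered Zfp genes and of 22180 genes, and black lines are medians. The members lie below 0 for high minus low in hypothalamus (median -0.65) and for pool minus single mice in pituitary (-0.45), and around 0 for stress minus control.

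For stress, the medians of the family lay near 0 in hypothalamus and pituitary and their sign depended on single arrays. Stressed minus control values had a median over members of -0.01 in hypothalamus (24 lower, 23 higher), of -0.03 in pituitary (25 lower) and of 0.11 in ovary (17 lower, 30 higher), beside medians of -0.02, -0.04 and -0.02 for all genes. No member and no gene passed the test in any tissue (0% each; limma, 3 against 3 arrays). At an unadjusted p below 0.05 there were 0 members in hypothalamus (245 genes), 2 in pituitary (294 genes) and 5 in ovary (592 genes). The median SE of a single member's difference was 0.31, 0.33 and 0.25 in these tissues, which is not the SE of a median over members. With 1 array left out, the median ran between -0.22 (without the stressed low mouse) and 0.17 (without the stressed high mouse) in hypothalamus, where it was also 0.13 without the control low mouse and 0.04 without the stressed pool. In pituitary it ran between -0.15 (without the stressed low mouse) and 0.25 (without the stressed pool), with 0.11 and 0.05 without the control high and the control low mouse. In ovary it stayed above 0, with a highest value of 0.22 without the stressed low mouse.

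The 3 stressed and 3 control arrays did not overlap in few members. In hypothalamus 0 were lower (2.6% of all genes) and 1 higher (2.13%, against 1.94%), which was Zfp983 (0.18, 95% confidence interval -0.22 to 0.58). In pituitary 1 was lower (2.13%, against 3.68%), Zfp963, and 1 higher (2.13%, against 2.4%), Zfp992. In ovary 0 were lower (4.07% of all genes) and 5 higher (10.6%, against 4.71%).

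Zfp992 in pituitary had 6.47 (high), 6.19 (low) and 5.75 (pool) in stressed mice, against 5.42, 5.53 and 4.51 in control mice. The means were 6.13 ± 0.36 in stressed and 5.15 ± 0.56 in control mice (SD, n = 3 each), a difference of 0.98 (95% confidence interval 0.23 to 1.73; limma adjusted p = 0.9999). Zfp963 averaged 7.22 ± 0.12 in stressed and 7.77 ± 0.28 in control pituitaries, a difference of -0.55 (-1.07 to -0.03; limma adjusted p = 0.9999). Neither difference passed the test.

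In ovary, Zfp935 had 4.86 (high), 4.33 (low) and 4.91 (pool) in stressed mice, against 3.65, 4.19 and 3.65 in control mice, a difference of 0.87 (95% confidence interval 0.34 to 1.41; limma adjusted p = 0.9985). Zfp961 had 7.03, 7.01 and 6.96 in the same classes of stressed mice, against 6.41, 6.53 and 6.44 in control mice, a difference of 0.54 ± 0.16 (SE), with each stressed array above every control one. Zfp975 averaged 4.10 ± 0.13 in stressed and 3.50 ± 0.20 in control ovaries (SD, n = 3 each). None of these passed the test. Stress was higher in every class in 15 members (31.9%), against 17% of all genes, and lower in every class in 2 (4.26%), against 19.3%.

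By class, the family had opposite medians in hypothalamus. Stress minus control was -0.29 between the high mice (32 of 47 lower), 0.21 between the low mice (16 lower) and 0.09 between the pools (20 lower). In pituitary the medians were -0.09, 0.19 and -0.15, and in ovary 0.10, 0.10 and 0.32, with 37 of 47 members higher in the stressed ovary pool. Each of these values compares 1 array with 1 array, so they have no test. The stress difference was not found to differ between tissues: 0 members and 0% of genes passed the interaction of stress with hypothalamus against pituitary, hypothalamus against ovary, or ovary against pituitary (limma over 18 arrays), with 2, 1 and 2 members and 773, 496 and 805 genes at an unadjusted p below 0.05.

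Besides the class difference in hypothalamus, the members stood lower in the pituitary pools than in the single pituitaries, a comparison added after the values were seen. The median difference between pool and single mice was -0.45 in pituitary, with 42 of 47 members lower, while the median of all genes was 0.00 and that of other numbered Zfp genes -0.11. In 16 members (34%) the pools were lower and in 1 (2.13%) higher at an adjusted p below 0.05 (limma, 6 arrays), against 6.52% and 10.3% of all genes. Both pools lay below the mean of the single mice of their treatment in 33 members (70.2%), against 35.1% of all genes. The count of 17 members called fell when either pool was left out. The median member difference was -0.63 for the stressed and -0.46 for the control pool, against 0.04 and -0.02 for all genes.

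Zfp960 fell furthest in the pituitary pools, by 2.66 (-2.66 ± 0.23, SE; limma adjusted p = 0.0025). It had 5.41 in the stressed and 5.97 in the control pool, against 8.68 and 8.04 in stressed and 8.36 and 8.31 in control single mice. Zfp975 had 2.83 in the stressed and 4.15 in the control pool, against 5.95 and 6.07 in stressed and 5.69 and 5.22 in control single mice, a difference of -2.25 ± 0.40 (limma adjusted p = 0.014). Zfp982 had 2.59 and 3.40 in the pools, against 5.01 to 5.44 in 3 of the single mice and 4.76 in the control low mouse, a difference of -2.16 ± 0.30 (limma adjusted p = 0.0075). In each of them the pools lay below every single mouse.

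Zfp984 (-1.86), Zfp931 (-1.75), Zfp935 (-1.60), Zfp943 (-1.31) and Zfp971 (-1.13) also fell in the pituitary pools. Of the 5 members with higher values there, Zfp954 was the only one that passed the test. It was picked after its values were seen, and it was higher in the pools of every tissue. In pituitary it had 7.49 and 7.43 in the stressed and control pools, against 5.94 to 6.89 in single mice, a difference of 1.09 ± 0.24 (limma adjusted p = 0.025). In ovary it had 7.14 and 7.23 in the pools, against 5.70 to 6.39 in single mice, a difference of 1.19 ± 0.15 (limma adjusted p = 0.0099). In hypothalamus it had 7.05 and 7.08 in the pools, against 5.71 to 6.20 in single mice.

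In ovary the median difference between pools and single mice was 0.03, with 3 members (6.38%) higher and 2 (4.26%) lower in the pools, against 8.76% and 4.37% of all genes. Of the 47 members, 0 passed without the stressed pool and 0 without the control pool, 2 members passed without the control low mouse and 3 without the stressed high mouse. In hypothalamus the median was -0.16 with 34 of 47 members lower, given without a test because the arrays are those that chose the family. Some pools, though not the control hypothalamus pool, had higher signals of another tissue's markers than the single mice. For 8 ovary markers, the summed log2 signal of the pituitary pools was 11.93 (stressed) and 8.73 (control), against 8.15 to 8.40 for single pituitaries. In hypothalamus the ovary markers summed to 11.02 in the stressed and 8.39 in the control pool, against 8.02 to 8.56 in single mice. The 6 pituitary markers summed to 14.85 and 14.81 in the stressed and control pituitary pools, against 15.14 to 15.22 in single pituitaries, and to 12.10 and 11.57 in the ovary pools, against 7.01 to 7.39 in single ovaries. The part of these transcripts in the pool differences was not tested.

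How far the members moved together from array to array differed between tissues. Averaged over all pairs of members, Pearson's r was 0.35 among the 6 hypothalami, 0.30 among the 6 pituitaries and 0.06 among the 6 ovaries, while it was at most 0.01 for all genes and at most 0.05 for other numbered Zfp genes. In hypothalamus 78.2% of member pairs correlated above 0. The members were chosen for a shared direction on the hypothalamus arrays, which by itself raises their correlation there, so nothing is read from that value. The points of each correlation share their arrays and RNA extracts, and paralogues can share signal through similar probes, so these values are descriptions. After removing tissue means, the mean over 18 arrays was 0.31 for the 152 pairs on the same chromosome and 0.25 for the 929 pairs on different ones. The most alike pairs were Zfp960 with Zfp975 (0.92, chromosomes 17 and 7), Zfp946 with Zfp960 (0.91, both on chromosome 17) and Zfp975 with Zfp982 (0.89, chromosomes 7 and 4).

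**Figure D4:**
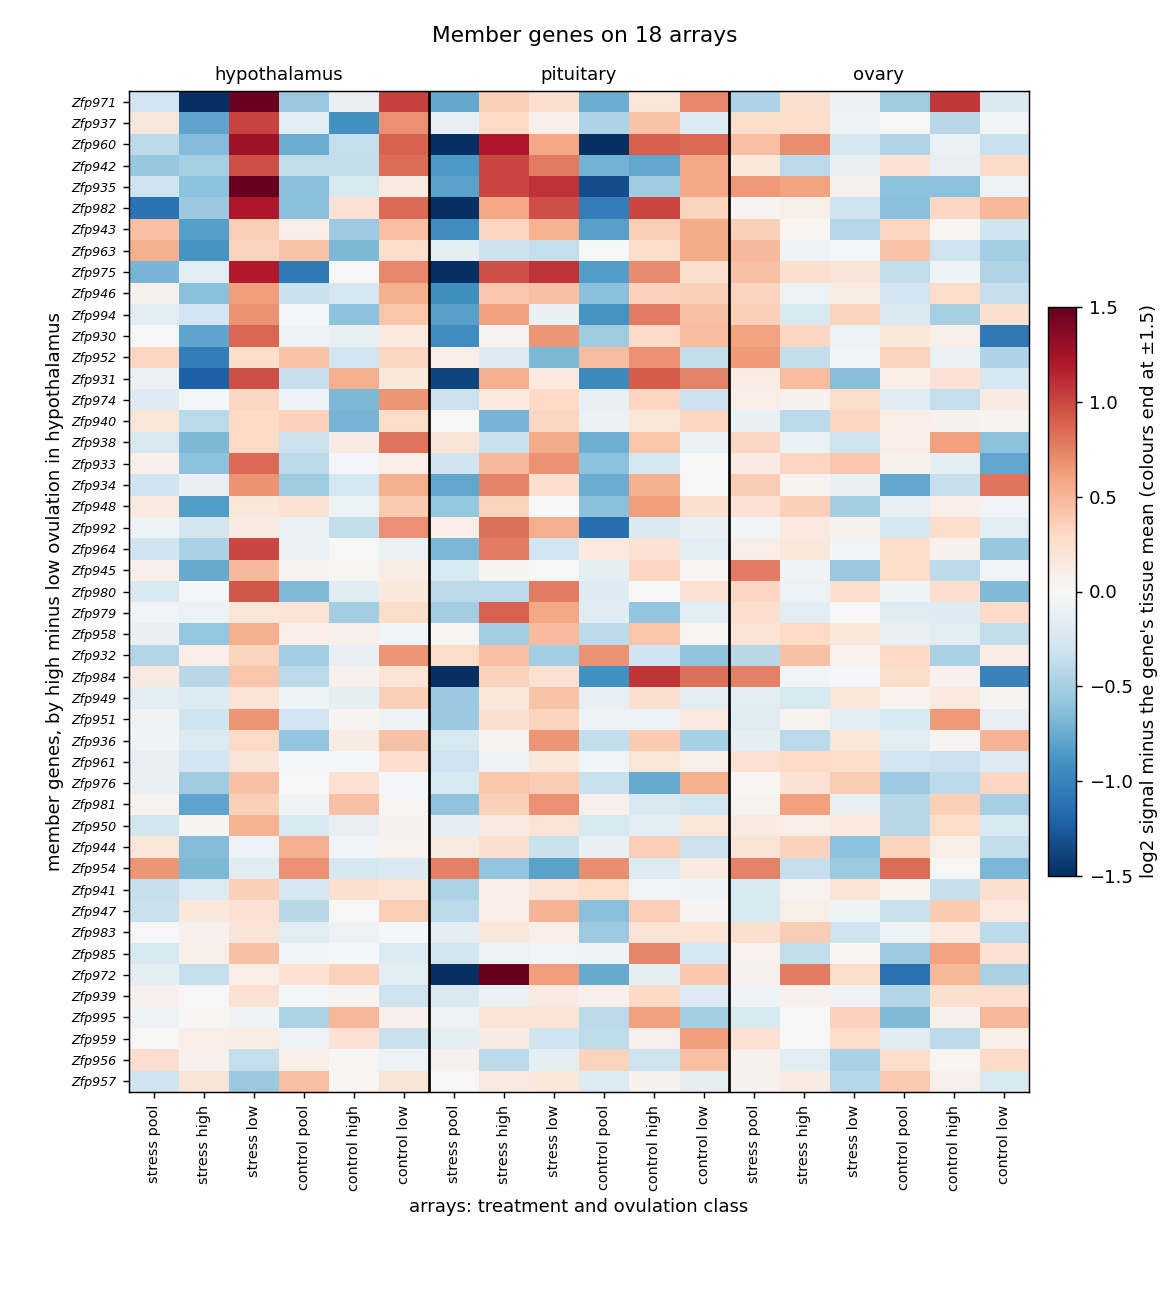
Log2 signal minus the gene's own mean in its tissue (colour, ending at ±1.5) for the 47 members (rows, ordered by high minus low in hypothalamus, lowest on top) on 18 arrays (columns, by tissue, treatment and class). The stressed low hypothalamus and the single pituitaries are mostly red (higher) in the upper rows, and the stressed high hypothalamus and both pituitary pools mostly blue (lower).

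By array, the members deviated from their tissue mean by a median of -0.40 (stressed) and -0.04 (control) in the high hypothalami, against 0.36 and 0.21 in the stressed and control low ones, and -0.10 in both pools. In the stressed high hypothalamus 10 of 47 members lay above their tissue mean, against 42 in the stressed low one. In pituitary the deviation was -0.33 and -0.38 in the stressed and control pools, against 0.24 and 0.25 in stressed and 0.28 and 0.14 in control high and low mice. In ovary it stayed between -0.18 and 0.16.

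Genes that serve as signs of RNA state also differed between high and low hypothalami. Ribosomal protein and histone genes ran against the family's direction, and nuclear-retained RNAs ran with it. Between high and low mice, the median difference of 60 cytosolic ribosomal protein genes was 0.40 (9 lower), that of 25 replication-dependent histone genes was 0.28 (7 lower) and that of 7 nuclear-retained RNAs, such as Malat1 and Neat1, was -0.21 (6 lower). Histone messages lack a poly(A) tail, and nuclear RNAs depend on how nuclei are recovered, so both lists can respond to how RNA was extracted and primed. Across 10626 genes, the high minus low difference in hypothalamus correlated with the length of the gene's genomic span (Spearman rho -0.38), with lower values for long genes; the rho was -0.21 in pituitary and -0.27 in ovary. The members had a median span of 23.5 kb, and that of all genes is not given here. Over the 6 hypothalami, the members' array medians correlated with those of the nuclear-retained RNAs (Pearson's r 0.87). They also correlated with each array's rho between span and deviation from the tissue mean (0.85). For the histone and ribosomal protein genes r was -0.55 and -0.36. These arrays chose the family, and the part of RNA quality in its shift was not tested.

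In pituitary, too, these signs did not all follow the family. In the stressed and control pools, where the members were lowest, the nuclear-retained RNAs deviated by -0.12 and 0.07, the ribosomal protein genes by -0.13 and -0.06, and the histone genes by -0.03 and -0.17. In the control high pituitary the nuclear-retained RNAs stood at -0.58, the histone genes at 0.35 and the ribosomal protein genes at 0.245, while the members were at 0.28. Over the 6 pituitaries, the members' array medians correlated with those of the ribosomal protein genes (Pearson's r 0.63). The values were 0.29 for the histone genes and -0.08 for the nuclear-retained RNAs. Markers of neighbouring forebrain were lower in the high than in the low hypothalami in 8 of 11 genes (median -0.24). Their summed log2 signal was 9.86 and 10.52 in the stressed and control high mice, against 10.45 and 11.01 in the low mice. The same sum was 10.95 to 11.59 in the pituitaries and 9.82 to 10.0 in the ovaries, but a sum of signals can be carried by few genes. Gene by gene, 10 of the 11 were higher in hypothalamus than in pituitary (median 1.02, lowest -2.29). Against ovary, 8 of the 11 were higher in hypothalamus (median 0.79, lowest -0.71). The 7 measured hypothalamic markers summed to 13.13 and 13.17 in the high mice, against 13.12 and 12.85 in the low mice. The part of dissection in the shift was not tested.

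**Figure D5:**
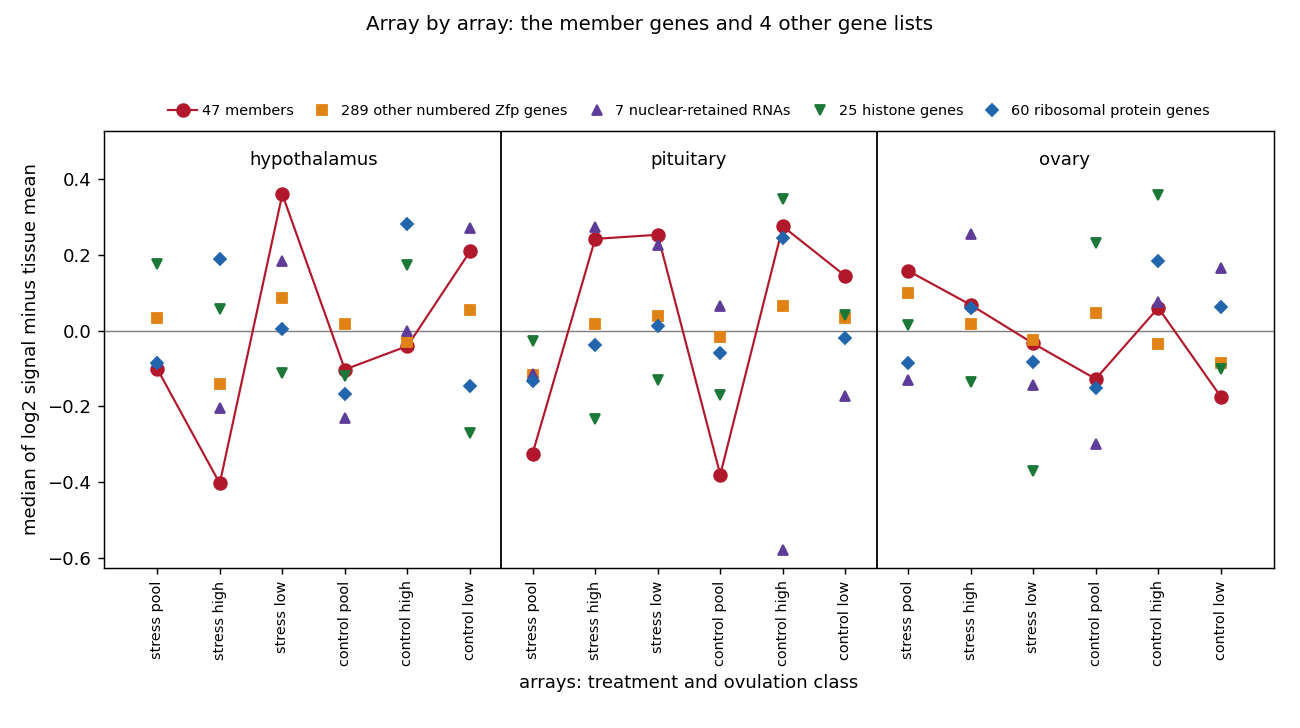
Median over genes of log2 signal minus the gene's tissue mean (y axis) on each of 18 arrays (x axis) for the 47 members (line), 289 other numbered Zfp genes, 7 nuclear-retained RNAs, 25 histone genes and 60 ribosomal protein genes. The members are lowest in the stressed high hypothalamus (-0.40) and the pituitary pools (-0.33 and -0.38), and the other numbered Zfp genes follow with smaller deviations in hypothalamus.

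Partners of KRAB zinc finger proteins and related repressors were mostly lower in the high hypothalami, though not all. Of 36 measured genes of a list of 40 cofactors and related repressors, 26 (72.2%) were lower in the high than in the low hypothalami, against 46.8% of all genes. Their median was -0.19. Both high mice lay below both low mice in 15 (41.7%) and above them in 6 (16.7%), against 24% and 25.6% of all genes. Atrx, a chromatin remodeller that places histone H3.3 at heterochromatin, had 6.57 and 7.14 in the stressed and control high mice, against 8.23 and 8.25 in the low mice, a difference of -1.38. Tasor, a subunit of the HUSH silencing complex, had a difference of -1.09 and Cbx5, which encodes heterochromatin protein 1 alpha, one of -0.93. Trim33 (-0.69), Smarcad1 (-0.57) and Hdac2 (-0.55) were also lower. So were Zkscan1 (-0.50) and Zfp57 (-0.42), which are on the list but are zinc finger genes themselves and not partners.

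Trim28, the central corepressor gene, had 9.00 and 8.98 in the stressed and control high mice, against 8.53 and 8.79 in the low mice, a difference of 0.33. Setdb1 was slightly lower in both pairs (-0.26 and -0.05), with a mean of -0.16. Ehmt2, a histone H3 lysine methyltransferase, was at 0.48 and Mta1, of the NuRD complex, at 0.42. Under stress 0 of the 36 passed in any tissue. In the pituitary pools 6 of 36 (16.7%) were higher and 5 (13.9%) lower than in single mice (limma adjusted p below 0.05), against 10.3% and 6.52% of all genes, with a list median of 0.23, while the zinc finger members had a median of -0.45.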

How the data were processed

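RNA of 18 samples was hybridised to Affymetrix Mouse Gene 2.0 ST arrays. The authors deposited log2 signals for 41345 transcript clusters, made with Transcriptome Analysis Console, per the submitters' processing notes. Its version, normalization and filters are not given in the sources used here, and the log2 scale was read from the range of the values. Clusters annotated to 1 gene (23521) gave 22180 genes by taking the cluster with the highest mean. No low values were filtered out, and 0 arrays were identical. Samples were grouped by the labels' tissue, treatment and class.

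Differences were fitted on all genes with limma 3.58.1 (R 4.3.3), Benjamini-Hochberg adjustment over all 22180 genes, a threshold of 0.05 and two-sided p. Stress was tested in each tissue on 6 arrays with 4 residual degrees of freedom. High against low, and pool against single mice, were fitted with class and treatment (2 degrees of freedom). Tissues and interactions were fitted on 18 arrays with the mouse or pool as a random block (estimated correlation 0.27). Intervals are 95% confidence intervals. P-values measure the spread among these single mice and pools. The steps were tested on simulated data. Tables and figures used pandas 2.3.3 and matplotlib 3.10.9 under Python 3.11.15.

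The members, gene lists and comparisons were chosen with earlier results of these data known. Named genes were the 6 lowest and 6 highest members in hypothalamus, up to 3 non-overlapping members per direction by unadjusted p in each other comparison, the 3 highest and 3 lowest by level, members above every array of other tissues, and the 10 genes of the list of cofactors and related repressors with the largest hypothalamic difference, beside Trim28 and Setdb1. Genes named for the pools, Zfp940, Zfp957 and Zfp992 by tissue, and Zfp954 fall outside this rule.

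Whether class pairs stressed with control arrays was checked from deviations from the group means. Same-class correlations ran from 0.359 to 0.727 and different-class ones from -0.521 to 0.321. The pairing comes from class names, not shared animals. Alternatives were quantile normalization, centring, a filter at the median level, the mean of a gene's clusters, array weights, no block, class as a block, and leaving out arrays.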

Additional observations from a re-analysis of the deposited data

Results flagged for a closer look

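The members below had every pair of arrays moving in 1 direction in one tissue and in the opposite direction in another. The differences in high minus low were not tested between tissues, while those in stress minus control were. Hypothalamic high minus low values chose the family, so gaps between hypothalamus and the other tissues can follow from that choice.

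Between hypothalamus and pituitary, high minus low ovulation differed by -2.12 for Zfp937 (-1.69 in hypothalamus, 0.43 in pituitary), by -1.92 for Zfp960 (-1.58 and 0.34), by -1.71 for Zfp952 (-0.94 and 0.77), by -1.53 for Zfp994 and by -1.30 for Zfp934 (-0.79 and 0.51). It differed by -1.10 for Zfp948, by -0.97 for Zfp944, by -0.82 for Zfp945 and by 0.77 for Zfp956, which was higher in the high mice in hypothalamus and lower in pituitary.

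Between hypothalamus and ovary, the difference was -2.88 for Zfp971 (-2.08 in hypothalamus, 0.80 in ovary), -2.19 for Zfp960, -1.26 for Zfp975, -1.24 for Zfp948, -1.04 for Zfp944, -0.999 for Zfp992, -0.70 for Zfp983 and 0.65 for Zfp995. The median over all members differed by -0.81 (-0.65 in hypothalamus, 0.16 in ovary).

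Between pituitary and ovary, it was 1.18 for Zfp994, 0.95 for Zfp995 and -0.64 for Zfp951. For stress minus control, Zfp961 differed by -0.69 between hypothalamus (-0.15) and ovary (0.54), and Zfp963 by -0.82 between pituitary (-0.55) and ovary (0.27). In the limma test of the difference in stress between these tissues, 0 of 47 members passed.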

How the results depend on the processing

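Medians and counts were recomputed under other settings. Of 152 such values 131 stayed within the spread between replicates (medians) or within 1.5 times (counts), which does not fix the sign of a median near 0. The sign turned in 11, all of them medians of high minus low in pituitary or of stress in hypothalamus or pituitary. Of 60 values of single named genes the sign turned in 1, Zfp972 in hypothalamus (0.021, and -0.015 after quantile normalization). The hypothalamic high minus low median lay between -0.84 and -0.32 when 1 array was left out, and was -0.60 after quantile normalization, -0.63 after centring and -0.81 for the 16 members at or above the median level. The high minus low median ran from -0.11 to 0.18 in pituitary, and from 0.093 to 0.33 in ovary, when 1 array was left out, and was 0.27 in ovary at or above the median level (15 members). With 1 array left out, the stress median ran from -0.22 to 0.17 in hypothalamus, from -0.15 to 0.25 in pituitary and from 0.082 to 0.22 in ovary. With class as a replicate block, 0 members passed for stress in any tissue, as without it, so the block changed no call. The pool count in pituitary was 9 of 20 members under the filter, and 5 to 19 when 1 array was left out. In ovary it was 1 after quantile normalization, 9 with array weights, and 0 to 6 when 1 array was left out, 0 without the stressed and 0 without the control pool. At or above the median level (13 members), 0 were higher and 5 lower for hypothalamus against pituitary, 2 higher and 0 lower against ovary, and 8 lower for ovary against pituitary. The filter leaves fewer members to be called. Higher members for hypothalamus against pituitary numbered 1 with no animal block and 1 without the pools. Lower ones numbered 7 with no animal block and 15 without the pools, against 10 in the main fit. Against ovary, lower members numbered 1 without the pools. The cause of these changes was not tested. For these counts and the pool counts, the shares of all genes under the same settings are not given here. The weak signal of many members and single arrays per class limit these values.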
